A study of Homo sapiens with 24 samples.

Results

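Libraries labelled SKBR3 were compared after transfection with small interfering RNA (siRNA) against GCDH and after transfection with a control siRNA. They make up 6 of the 24 libraries of the series, 3 labelled siGCDH and 3 labelled siControl, and were taken by their labelled cell line and treatment. Cells had been seeded in triplicate wells and were harvested 48 hours after transfection, and RNA was poly(A)-selected and read single-end over 75 nt with a directional kit. The other libraries are A375, labelled melanoma, in 2 batches, and SK-Hep1, labelled liver cancer. The series' title names melanoma, GCDH and the transcription factor NRF2, and its design text sets A375 beside the liver and breast lines. All groups described here are untreated apart from the siRNA, as far as the labels say, and neither the siRNA sequences nor the number of siRNAs used are given in the sources used here. The deposited values are TPM, a length-corrected share of all transcripts in a library, so that a larger share for some transcripts leaves a smaller one for the rest. The table has 60504 rows, of which 16494 averaged 1 TPM or more over these 6 libraries and were tested.

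GCDH encodes glutaryl-CoA dehydrogenase, a flavoprotein of the mitochondrial matrix that turns glutaryl-CoA, a shared product of lysine, hydroxylysine and tryptophan breakdown, into crotonyl-CoA and passes its electrons to the electron-transfer flavoprotein. SKBR3 is known as a breast cancer line with an amplified ERBB2 gene and luminal epithelial features. Knockdown by siRNA loads a short guide strand into the RNA-induced silencing complex, which cleaves a fully matched transcript and, as is known for microRNAs, can also lower transcripts that pair with the guide's seed in the 3′ UTR.

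The marker genes went against the label. Of 22 luminal epithelial and ERBB2-neighbourhood genes, 12 averaged 1 TPM or more and 4 averaged 10 TPM or more. The sum over the list was 245.3 to 265.9 TPM in siGCDH libraries and 187.9 to 197.3 TPM in siControl libraries, against a mean of 537.1 TPM in siControl libraries of A375 batch 2 and 6783 TPM in those of SK-Hep1. ERBB2 itself had 41.6 ± 3.25 TPM in siGCDH libraries and 25.5 ± 2.23 TPM in siControl libraries (SD, n = 3 each). That control level lay below the 32.7 TPM of A375 batch 2 and the 46.4 TPM of SK-Hep1. The luminal genes KRT7, KRT19, ELF3, GRHL2, SPDEF, ESRP1 and TFAP2B each stayed at or below 0.68 TPM in every library of both groups. They were named after their values were seen. The highest members were the ERBB2 neighbours MIEN1 and STARD3, with siGCDH and siControl means of 82.3 and 81.7, and 58.7 and 39.3 TPM. In siControl libraries of A375 batch 2 and SK-Hep1, MIEN1 had 78.65 and 81.5 TPM and STARD3 57.0 and 68.9 TPM. Here KRT18, KRT8 and EPCAM had siGCDH and siControl means of 31.4 and 19.5, 10.6 and 9.07, and 5.37 and 1.90 TPM. FOXA1 had 4.93 and 2.49 TPM, and CDH1 2.99 and 2.49 TPM. CDH1 averaged 0 TPM in siControl libraries of A375 batch 2 and SK-Hep1. Most of the SK-Hep1 sum came from KRT18 (2687 TPM), KRT8 (2317 TPM) and KRT19 (1262 TPM). The other lists did not give a name either. All 5 basal epithelial markers were below 1 TPM on average, the 11 melanocyte genes summed to 32.1 to 38.3 TPM in siGCDH libraries and 21.8 to 27.1 TPM in siControl libraries, and 1 of 10 hepatocyte, 1 of 8 endothelial and 2 of 6 blood cell genes reached 1 TPM. The mesenchymal list was the most abundant of the 7, with 8 of 11 genes at 10 TPM or more and sums of 647.5 to 689.5 TPM in siGCDH libraries and 739.1 to 746.0 TPM in siControl libraries. Its sum was 4211 TPM in siControl libraries of A375 batch 2 and 8324 TPM in those of SK-Hep1. VIM, vimentin, made up most of it, with 503.1 ± 14.3 TPM in siGCDH libraries and 562.9 ± 7.76 TPM in siControl libraries. The cells are therefore called SKBR3-labelled throughout. Among protein-coding genes, 8 had at least 50 TPM in these siControl libraries and under 2 TPM in those of A375 batch 2 and SK-Hep1, a rule set after the values were seen. They were led by CA2, a carbonic anhydrase gene, with 143.7 ± 3.01 TPM in siGCDH libraries and 301.8 ± 16.7 TPM in siControl libraries, and by IRS4, an insulin receptor substrate gene, with 228.9 ± 9.41 and 301.5 ± 1.97 TPM in the same order, followed by ID4, CKMT1B, CA8, HOXA9, GPC3 and PCSK1N.

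Libraries of a group resembled each other more than those of the other group. Pearson correlations of log2 values across genes were 0.970 to 0.975 among siGCDH libraries and 0.980 to 0.982 among siControl libraries, and 0.930 to 0.937 between the groups. From 17112 to 17251 rows reached 1 TPM in siGCDH libraries and from 15140 to 15181 in siControl libraries. TPM values keep no read totals, so sequencing depth is unknown, no counting interval can be given, and its part in the gap in detected rows was not tested. Replicates were wells, so p-values measure the spread between wells, which may be technical.

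GCDH (ENSG00000105607, hg38 chromosome 19, 12891026 to 12914207, plus strand) had 5.60, 4.61 and 7.60 TPM in siGCDH libraries, against 22.03, 22.65 and 22.77 TPM in siControl libraries. Every siGCDH library lay below every siControl library, and the siGCDH mean was 26.4% of the siControl mean. The log2 fold change was -1.78 (SE 0.15, limma adjusted p = 6.39e-05), and the exact two-sided permutation test gave p = 0.1, the smallest that 3 against 3 libraries allow. The GCDH knockdown did not differ detectably from the mean of A375 batch 2 and SK-Hep1 (difference 0.06 on the log2 scale, limma adjusted p = 0.78). It lay between those of the other lines, which were -2.21 in A375 batch 2 and -1.48 in SK-Hep1. Whether the size of the knockdown differed between those 2 lines was not tested.

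A large share of the tested genes was called, and how large depended on the fit. Of 16494 genes, limma called 10236 at an adjusted p under 0.05, which is 62.1%, with 7805 higher (47.3%) and 2431 lower (14.7%) in siGCDH cells. A joint fit of all 24 libraries called 7758 of the same genes. In the main fit, changes of at least 1 on the log2 scale were called for 2280 higher genes (13.8%) and 288 lower genes (1.75%). The median log2 fold change over all tested genes was 0.29. With library medians over genes of at least 5 TPM set equal, called median scaling here, 5043 genes were called higher (30.6%) and 4171 lower (25.3%), and the median became 0.08. Quantile normalization gave 4238 higher and 4309 lower of the 16494 genes, the base for list counts given after it. Fold changes are differences of log2(TPM + 1), which understates the change of low genes, and list counts below are to be read beside the 47.3% higher and 14.7% lower over all genes and beside their counts after rescaling. Among protein-coding genes of at least 5 TPM the shift fell with level. In 5 bins of equal size by mean level, the median log2 fold change was 0.34 in the lowest and 0.01 in the highest (2126 genes each). In bulk samples fewer cells of a type and less RNA per cell cannot be told apart.

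**Figure D1:**
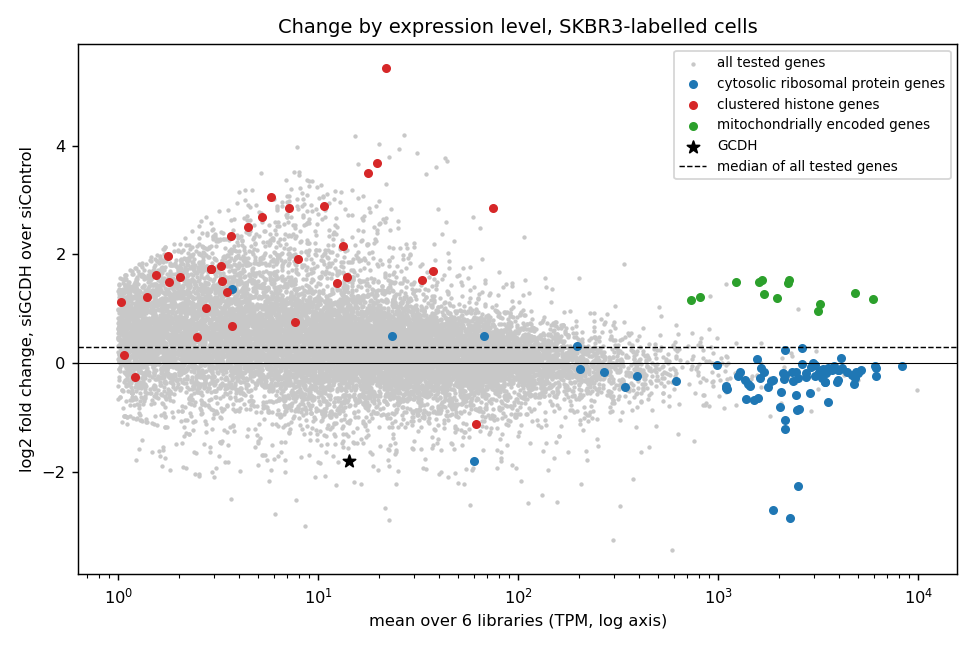
Log2 fold change (siGCDH over siControl) of each tested gene against its mean over the 6 SKBR3-labelled libraries (TPM, log axis), with 3 gene lists coloured, GCDH starred, and a dashed line at the median of all genes, 0.29. Mitochondrially encoded genes lie together above 0.9, cytosolic ribosomal protein genes lie mostly just below 0 with 3 near or under -2.2, and clustered histone genes rise at low levels.

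The deepest falls included housekeeping transcripts of very high level. SLC25A6, an ADP/ATP carrier of the inner mitochondrial membrane, had 58.3, 53.6 and 56.7 TPM in siGCDH libraries, against 563.1, 513.2 and 546.8 TPM in siControl libraries, 10.4% of the siControl mean (log2 fold change -3.24, SE 0.05, adjusted p = 7.65e-08). RPL13A, a protein of the large ribosomal subunit, had 556.5, 552.0 and 575.4 TPM in siGCDH libraries and 4121, 3981 and 3938 TPM in siControl libraries (log2 fold change -2.84, SE 0.03, adjusted p = 7.37e-09). RPS14, of the small subunit, had 484.7, 516.1 and 501.6 TPM in siGCDH libraries and 3213, 3002 and 3550 TPM in siControl libraries (-2.69 on the log2 scale). For these genes the groups were far apart relative to the spread within each. The other falls among the 12 largest of protein-coding genes with an approved symbol were ANAPC11, a catalytic subunit of the anaphase-promoting complex (-2.54), SLC35F1 (-2.51), DDT, D-dopachrome tautomerase (-2.42), RPL6 of the large subunit (-2.24), GXYLT1, a xylosyltransferase (-2.23), the orphan nuclear receptor gene NR2F6 (-2.21), NOLC1, a nucleolar phosphoprotein (-2.21), CCDC167 (-2.20) and HMOX1, heme oxygenase 1 (-2.17). Groups that do not overlap were part of the rule that named them, and 16.8% of all tested genes met it in the lower direction. Ribosomal protein genes and SLC25A6 have many near-identical pseudogenes, among which the estimated values divide reads. RPL13AP5, a processed pseudogene of RPL13A, moved with it, at 4.83 ± 1.57 TPM in siGCDH libraries and 40.5 ± 1.80 TPM in siControl libraries (log2 fold change -2.87).

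The 12 largest rises among protein-coding genes with an approved symbol were of transcripts that were low in siControl cells. The rule leaves out rows under older symbols, among them HIST2H2AA4, whose rise was larger and which was listed at 0 in all siControl libraries. H3C10, a clustered histone H3 gene, had 39.2, 37.1 and 35.8 TPM in siGCDH libraries, against 2.44, 1.67 and 1.95 TPM in siControl libraries (log2 fold change 3.67, SE 0.11, adjusted p = 1.27e-06). DYNLT2, a dynein light chain gene, had 62.9, 66.0 and 62.3 TPM in siGCDH libraries and 3.94, 6.84 and 4.14 TPM in siControl libraries (3.47). SLF2, which acts in recruiting SMC5/6 to DNA lesions, had 99.2, 107.0 and 105.1 TPM in siGCDH libraries and 15.3, 14.2 and 16.3 TPM in siControl libraries (2.69). The remaining 9 were the histone genes H2BC21, H2AC13, H2AC11 and H2BC17 together with CBY3, HCG27, RAB26, a small GTPase gene, RNF165, a ubiquitin ligase gene, and MST1, which encodes macrophage-stimulating protein, with log2 fold changes of 2.61 to 3.50. Groups that do not overlap were again part of the rule, and 51.3% of all tested genes met it in the higher direction.

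**Figure D2:**
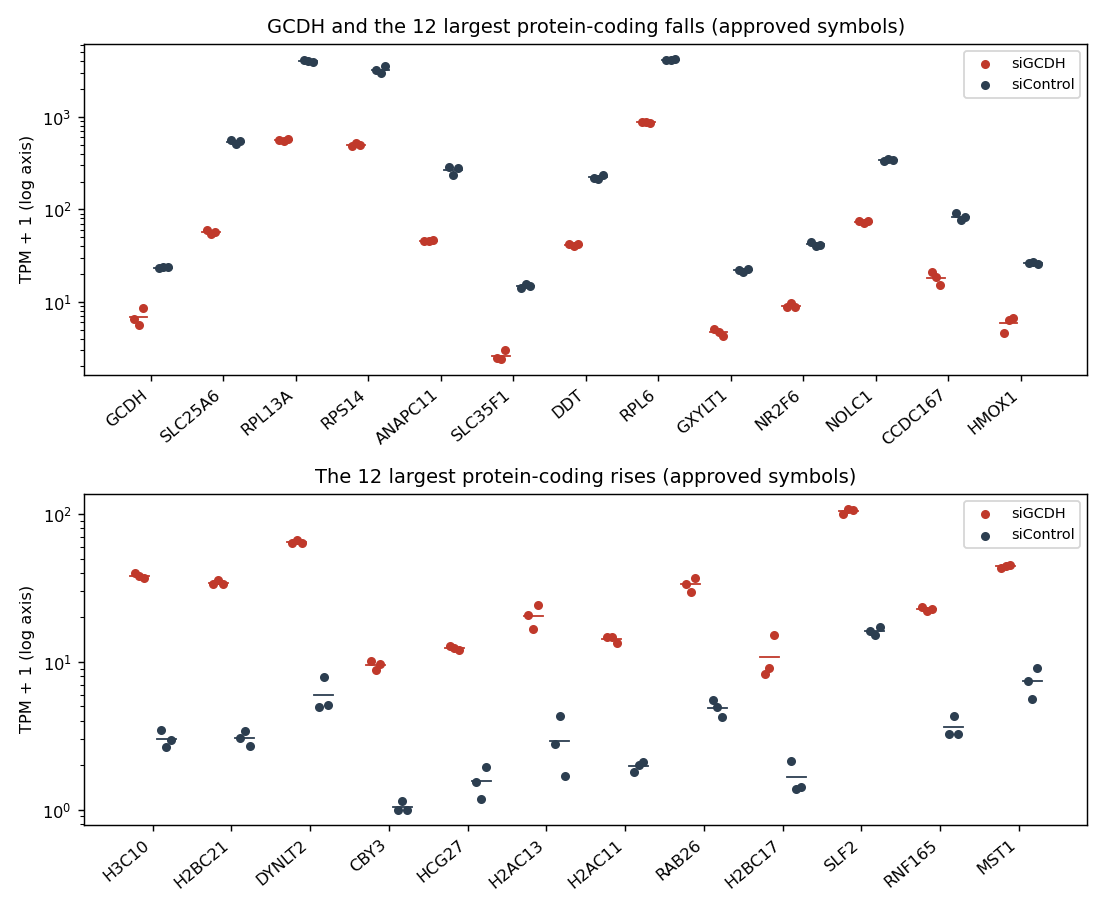
TPM + 1 (log axis) in each SKBR3-labelled library for GCDH with the 12 largest falls (top) and for the 12 largest rises (bottom) among protein-coding genes with an approved symbol; points are libraries, short lines are group means, siGCDH left of siControl. In each gene the 3 siGCDH libraries lie on 1 side of the 3 siControl libraries, which the naming rule required except for GCDH.

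Cytosolic ribosomal protein genes made up 20.2% ± 0.21 of TPM in siGCDH libraries and 24.7% ± 0.20 in siControl libraries (SD, n = 3 each). Of 86 tested, 67 fell, 7 rose and 12 did not pass, with a median of -0.22. After median scaling 80 fell and 1 rose, and after quantile normalization 40 fell and 10 rose. The middle of the list moved little, with quartiles of -0.40 and -0.11, whereas 6 genes fell by at least 1, namely RPL13A, RPS14, RPL6, RPL22L1 (-1.79), RPL14 (-1.20) and RPS15A (-1.04). The share without RPL13A, RPS14 and RPL6 was 20.1% of TPM in siGCDH libraries and 23.6% in siControl libraries. The rises included the paralogs RPL39L and RPS27L, each at 0.50, and RPL3L (1.36), a heart and muscle form.

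All 13 mitochondrially encoded protein genes rose, with log2 fold changes of 0.96 to 1.54 and a median of 1.28 (13 also rose after median scaling and after quantile normalization). MT-ND1, a complex I subunit, had 2429, 2488 and 2483 TPM in siGCDH libraries and 856.5, 857.0 and 835.4 TPM in siControl libraries (1.54, SE 0.02, adjusted p = 7.65e-08). MT-ATP6, of the ATP synthase, had 6827 ± 149.7 TPM in siGCDH libraries and 2779 ± 18.3 TPM in siControl libraries, and MT-CYB, of complex III, 2360 ± 62.8 and 831.2 ± 15.9 TPM in the same order. All 37 mitochondrial genes together took 4.787%, 4.999% and 4.848% of TPM in siGCDH libraries and 2.06%, 2.12% and 1.99% in siControl libraries, a difference of 2.82 percentage points (exact two-sided permutation p = 0.1, the smallest possible). Nuclear-encoded respiratory chain and ATP synthase genes moved otherwise. Of 76 tested, 30 fell, 9 rose and 37 did not pass, with a median of -0.08 (59 fell and 1 rose after median scaling, 23 fell and 12 rose after quantile normalization). ATP5MC2, a c-ring subunit of ATP synthase, fell most (-2.12, 139.8 ± 10.2 TPM in siGCDH libraries and 609.1 ± 22.6 TPM in siControl libraries), and NDUFB10, of complex I, rose by 0.87. Mitochondrial ribosomal protein genes had 31 falls and 19 rises among 78 (55 and 5 after median scaling), with MRPL48 at -1.79 and MRPS2 at -1.29.

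Of 34 clustered histone genes, which make replication-dependent histones from messages that mostly end in a stem-loop without a poly(A) tail, 30 rose, 1 fell and 3 did not pass (29 and 1 after median scaling, 24 and 1 after quantile normalization). The median log2 fold change was 1.66, and the median level was 7.51 TPM in siGCDH libraries and 1.38 TPM in siControl libraries. H2BC12 fell (-1.10). HIST2H2AA4 was listed at 0 in all siControl libraries and is a near copy of HIST2H2AA3, so its value is uncertain. Histone genes took 0.0617% ± 0.0017 of TPM in siGCDH libraries and 0.0191% ± 0.00077 in siControl libraries. Replication genes did not move with them as a list. Of 48, 15 rose, 12 fell and 21 did not pass (median 0.01), while 6 rose and 28 fell after median scaling and 14 and 16 after quantile normalization. TOP2A, topoisomerase II alpha, rose by 0.72 and TYMS, thymidylate synthase, by 0.60, while RRM2, of ribonucleotide reductase, fell by 0.60 on the log2 scale. Of 44 mitosis genes 29 rose and 7 fell (20 and 11 after median scaling, 23 and 7 after quantile normalization), with NDC80 of the kinetochore at 1.35, HMMR at 1.14 and the proliferation marker MKI67 at 0.98.

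SLC7A5, the light chain of the leucine transporter LAT1, had 33.5, 29.6 and 33.9 TPM in siGCDH libraries, against 124.6, 124.8 and 122.9 TPM in siControl libraries (log2 fold change -1.91, SE 0.06, adjusted p = 1.40e-06). SLC1A5, the glutamine transporter ASCT2, had 56.8 ± 5.61 TPM in siGCDH libraries and 223.1 ± 4.07 TPM in siControl libraries (-1.96). PSAT1, of serine synthesis, had 128.0 ± 5.57 TPM in siGCDH libraries and 369.7 ± 10.8 TPM in siControl libraries (-1.52). These are members of a list of 41 genes of the ATF4 response to amino acid and endoplasmic reticulum stress, of which 22 fell, 12 rose and 7 did not pass (median -0.16; 26 fell and 5 rose after median scaling, 20 and 5 after quantile normalization). ATF4 had 921.8 ± 11.8 TPM in siGCDH libraries and 1061 ± 13.4 TPM in siControl libraries (-0.20, a call lost after quantile normalization), ATF3, a stress-induced factor, 33.5 ± 0.60 and 72.6 ± 2.92 TPM (-1.09), and CHAC1, a glutathione-degrading enzyme, 3.11 ± 0.58 and 10.5 ± 3.45 TPM (-1.45), each with siGCDH first. DDIT3, which encodes CHOP, went the other way, with 34.6 ± 1.26 TPM in siGCDH libraries and 18.6 ± 2.28 TPM in siControl libraries (0.86). TRIB3 was called at 0.37, a call lost after median scaling and quantile normalization. Of 20 cytosolic aminoacyl-tRNA synthetase genes, 10 fell and 2 rose (17 fell after median scaling, 9 fell and 2 rose after quantile normalization), among them QARS1 (-0.62), HARS1 (-0.50) and TARS1 (-0.31). In the endoplasmic reticulum chaperone list 13 of 30 rose and 6 fell, with DERL3, of ER-associated degradation, at 1.94 and HSP90B1 at -0.38 (7 rose and 11 fell after median scaling, 11 and 9 after quantile normalization). CALR, calreticulin, had 368.6 ± 28.4 TPM in siGCDH libraries and 400.4 ± 9.81 TPM in siControl libraries and did not pass (-0.12, adjusted p = 0.0929). It was called lower after median scaling (-0.362, adjusted p = 0.00107) and without siGCDH replicate 3 (-0.184, adjusted p = 0.00736), and lay at 0.0163 after quantile normalization.

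MYC, the growth-promoting transcription factor, had 36.1, 36.4 and 37.9 TPM in siGCDH libraries and 167.1, 170.5 and 167.1 TPM in siControl libraries (log2 fold change -2.16, SE 0.04, adjusted p = 2.20e-07). It was the most significant member of a list of 21 growth-factor feedback and immediate early genes, of which 8 fell, 3 rose and 10 did not pass (9 fell and 1 rose after median scaling, 14 fell after quantile normalization), with DUSP1, a MAP kinase phosphatase, at -1.42. Of 6 oncofetal genes, 4 fell and 2 did not pass (5 fell after median scaling and after quantile normalization). HMGA2, a chromatin protein of embryonic cells, had 10.01, 9.64 and 8.90 TPM in siGCDH libraries and 38.0, 41.0 and 41.8 TPM in siControl libraries (-1.97), its relative HMGA1 had 106.4 ± 4.41 and 327.3 ± 9.45 TPM in the same order (-1.61), and LIN28B, a repressor of let-7 maturation, was at -0.53. Among 26 hosts of small nucleolar RNAs, 12 fell and 9 rose (14 and 7 after median scaling). SNHG29 had the largest fall of any tested gene, with 100.2, 97.0 and 101.6 TPM in siGCDH libraries and 1099, 1060 and 1078 TPM in siControl libraries (-3.42, SE 0.03, adjusted p = 7.37e-09), and GAS5 had 230.8 ± 11.9 and 670.5 ± 21.8 TPM (-1.54). HNRNPC, an abundant nuclear RNA-binding protein, had 408.7 ± 16.7 TPM in siGCDH libraries and 1097 ± 19.5 TPM in siControl libraries (-1.42), and HNRNPA1 was at -0.87. Of 21 hnRNP genes 9 rose and 8 fell (1 and 13 after median scaling, 9 and 6 after quantile normalization).

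Of 31 targets of p53, 22 rose, 1 fell and 8 did not pass, beside 47.3% higher over all genes, with a median of 0.46 against 0.29 (13 and 5 after median scaling, 11 and 4 after quantile normalization). CDKN1A, the cell cycle inhibitor p21, had 30.1 ± 0.27 TPM in siGCDH libraries and 18.6 ± 1.68 TPM in siControl libraries (0.68), and DDB2, of nucleotide excision repair, 51.2 ± 1.504 and 19.7 ± 3.76 TPM (1.35). TNFRSF10B, the death receptor DR5, was at 0.96, and PHLDA3, an AKT inhibitor, at 1.49. MDM2, the ubiquitin ligase of p53, was called at 0.35, a call lost after median scaling and quantile normalization, and CCNG1 fell (-0.65). Among BCL2 family genes 8 of 19 rose and 4 fell (5 and 6 after median scaling, 4 and 7 after quantile normalization), and without siControl replicate 2 the rises were 5. The falls included the pro-survival MCL1 (-0.84) and the BH3-only gene PMAIP1 (-0.88). Of 22 genes of death receptors, caspases and their inhibitors, 12 rose and 3 fell, near the 47.3% and 14.7% over all genes (7 and 5 after median scaling, 7 and 7 after quantile normalization), with the executioner CASP6 at -1.58 and the inhibitor BIRC5 at 0.60.

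Of 21 interferon-stimulated genes, 12 rose, 2 fell and 7 did not pass, beside 47.3% higher and 14.7% lower over all genes, with a median of 0.57 against 0.29 (10 and 2 after median scaling, 9 and 6 after quantile normalization). The count of falls was 1 when siControl replicate 1, siControl replicate 3, siGCDH replicate 1 or siGCDH replicate 3 was left out. ISG15, a ubiquitin-like modifier, had 21.0, 19.62 and 19.96 TPM in siGCDH libraries and 7.53, 6.49 and 6.31 TPM in siControl libraries (1.45), and IFI6 had 35.4, 34.3 and 32.9 TPM in siGCDH libraries and 13.3, 8.73 and 12.2 TPM in siControl libraries (1.52). The transcription factors STAT2 (0.82) and IRF9 (0.70) were also higher, and the membrane proteins IFITM3 (-0.82) and IFITM2 (-0.56) were lower. Of 13 NF-kB and cytokine genes 5 rose and 1 fell (2 and 1 after median scaling), but 1 rose and 4 fell after quantile normalization, and CCL2 was listed at 0 in all 6 libraries, as was KRTAP2-3.

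In the pathway of GCDH itself, 7 of 19 lysine and tryptophan breakdown genes fell, 5 rose and 7 did not pass (11 and 2 after median scaling). AFMID, kynurenine formamidase, had 37.8 ± 1.93 TPM in siGCDH libraries and 69.7 ± 1.90 TPM in siControl libraries (-0.87). ETFDH, which takes electrons on from the electron-transfer flavoprotein, had 58.9 ± 4.45 and 33.4 ± 4.37 TPM in the same order (0.80). ALDH7A1 and DHTKD1, upstream steps of lysine breakdown, did not pass (0.03, adjusted p = 0.63, and -0.14, adjusted p = 0.085, by limma). After median scaling both were called lower (ALDH7A1 -0.21, adjusted p = 0.00964, and DHTKD1 -0.375, adjusted p = 0.00173). DHTKD1 was also called lower after quantile normalization (-0.271, adjusted p = 0.00884) and without siControl replicate 3 (-0.188, adjusted p = 0.0356). The 7 falls include GCDH itself. Without siGCDH replicate 2 the count of falls was 2, without siGCDH replicate 1 it was 4, and without siControl replicate 1 the count of rises was 3.

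NFE2L2, the gene of NRF2, had 45.4 ± 2.80 TPM in siGCDH libraries and 37.3 ± 0.83 TPM in siControl libraries (0.28, adjusted p = 0.0064), a call lost after median scaling and quantile normalization. Among 34 targets of NRF2 there were 15 rises and 11 falls (8 and 15 after median scaling, 9 and 14 after quantile normalization). NQO1, a quinone reductase, had 15.53, 16.40 and 14.71 TPM in siGCDH libraries and 4.34, 7.16 and 7.81 TPM in siControl libraries (1.19). Falls included HMOX1, with 3.60, 5.36 and 5.67 TPM in siGCDH libraries and 25.2, 25.7 and 24.4 TPM in siControl libraries, SLC7A11, the cystine transporter (-1.42), AKR1B1, an aldose reductase (-1.33), and the peroxidase gene PRDX1 (-0.54). FTH1, ferritin heavy chain, was called at 0.13, but was at -0.11 after median scaling. SQSTM1, which encodes the autophagy receptor p62 and binds the NRF2 inhibitor KEAP1, had 201.4, 198.0 and 197.9 TPM in siGCDH libraries and 76.5, 72.2 and 76.8 TPM in siControl libraries (1.39). Of 36 autophagy genes 17 rose and 2 fell, a share of rises near the 47.3% over all genes (12 and 11 after median scaling, 13 and 7 after quantile normalization), with OPTN, another receptor, at 1.23 and ATG9A at -1.12. Lysosome and proton pump genes had 29 rises and 8 falls among 42 (14 and 12 after median scaling, 24 and 8 after quantile normalization), with ATP6V0B (-1.33), CTSF (1.16) and CTSA (0.78). Of 10 pentose phosphate genes 6 fell and 3 rose (6 and 2 after median scaling), and TKT, transketolase, was at -0.61.

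Lipid and carbon enzymes were mixed in direction. Of 16 fatty acid synthesis genes 9 fell and 5 rose (10 and 3 after median scaling), with the desaturase SCD at 82.7 ± 1.59 TPM in siGCDH libraries and 226.5 ± 4.34 TPM in siControl libraries (-1.44), its relative SCD5 at 35.7 ± 0.79 and 12.1 ± 0.59 TPM (1.48) and ACLY, ATP citrate lyase, at -1.04. Of 25 sterol synthesis genes 12 fell and 6 rose, with IDI1 at -0.98 (18 fell and 4 rose after median scaling). Glycolysis and hypoxia genes had 14 rises and 7 falls among 29 (5 and 14 after median scaling, 10 and 9 after quantile normalization), and LDHA (-0.73), ENO1 (-0.66) and NDRG1 (-1.46) were its most significant members. TCA cycle, pyruvate and glutamine genes had 12 falls and 8 rises among 33 (22 and 1 after median scaling), with GLUD1, glutamate dehydrogenase, at -1.05. Matrix and integrin genes had 29 rises and 8 falls among 64 (19 and 14 after median scaling), but 17 and 19 after quantile normalization, with COL7A1 at 1.68 and LAMB2 at 1.47. The proteasome list had 16 rises and 16 falls among 44 (7 and 25 after median scaling, 17 and 11 after quantile normalization), and heat shock genes 4 and 9 among 22 (2 and 15, 6 and 8). SR splicing factors had 4 rises and 4 falls among 16 (1 and 11, 6 and 5). Of the 4 ERBB receptor and ligand genes tested, ERBB2 rose (0.68), as after median scaling, and 3 did not pass.

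Long intergenic and antisense RNAs were called higher more often than protein-coding genes. Protein-coding rows took 93.8% ± 0.032 of TPM in siGCDH libraries and 95.05% ± 0.036 in siControl libraries. Long intergenic RNAs (lincRNA) took 1.08% ± 0.0070 in siGCDH libraries and 0.547% ± 0.00040 in siControl libraries, and antisense RNAs 1.23% ± 0.011 and 0.712% ± 0.0085. Of 851 lincRNAs 578 rose and 17 fell (median 0.99), which is 67.9% higher, and of 1160 antisense rows 753 rose and 27 fell (median 0.91), or 64.9% higher, beside 45.6% of 12791 protein-coding genes (5839 rose and 2298 fell, median 0.23). With median scaling the counts were 504 and 31 for lincRNAs, 645 and 47 for antisense rows, and 3410 and 3958 for protein-coding genes. With quantile normalization they were 362 and 76, 419 and 108, and 3164 and 3860. The median level was 3.25 TPM among tested lincRNAs and 3.15 TPM among antisense rows, against 21.96 TPM among protein-coding genes, so biotype and level move together and their parts were not tested.

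**Figure D3:**
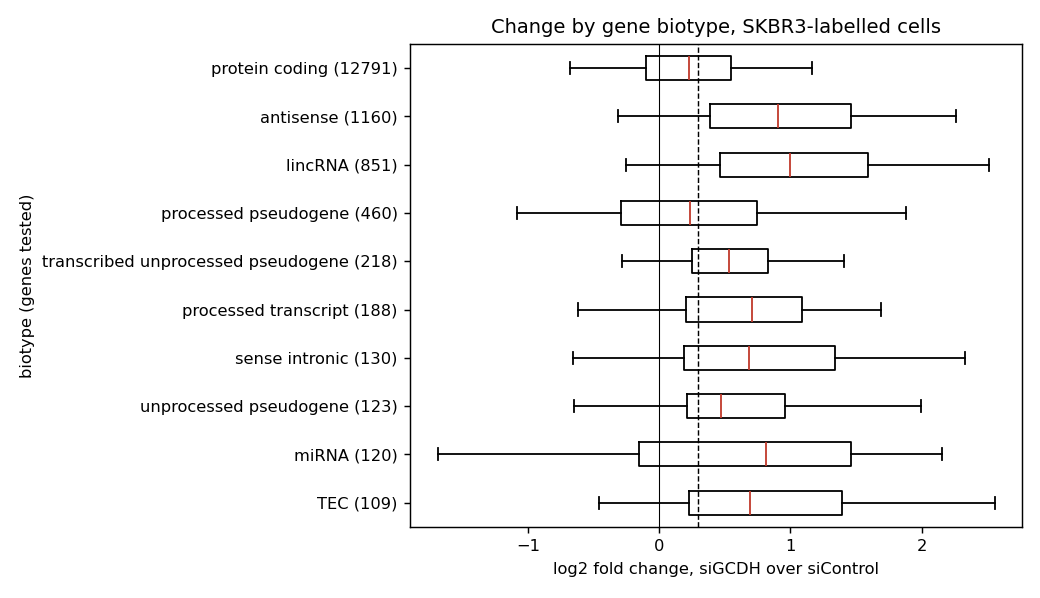
Log2 fold change (siGCDH over siControl) by gene biotype for the 10 biotypes with at least 100 tested genes; boxes are quartiles with the median in red, whiskers are the 5th and 95th percentiles, and the dashed line is the median of all genes, 0.29. The medians of lincRNA and antisense rows lie near 1.0 and 0.9, and those of protein-coding genes and processed pseudogenes near 0.2.

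LINC01976, the largest rise among lincRNAs with an approved symbol, had 73.2, 72.9 and 71.9 TPM in siGCDH libraries and 4.86, 4.81 and 5.60 TPM in siControl libraries (log2 fold change 3.60, SE 0.07, adjusted p = 2.33e-07). LINC01144 (3.09) and GSK3B-DT (3.08) followed among those. MIR222HG, the host of miR-221 and miR-222, fell, with 7.64 ± 0.16 TPM in siGCDH libraries and 18.7 ± 1.83 TPM in siControl libraries (-1.19). Among antisense rows, EIF5-DT, named as divergent to the translation factor gene EIF5, had 48.4, 47.9 and 47.8 TPM in siGCDH libraries and 1.06, 2.44 and 3.66 TPM in siControl libraries (3.93), and STAM-DT had 31.9, 30.4 and 27.97 TPM in siGCDH libraries and between 1.29 and 1.80 TPM in siControl libraries (3.66). The genes they are named for did not rise with them. EIF5 had 212.5 ± 12.99 TPM in siGCDH libraries and 253.6 ± 2.21 TPM in siControl libraries (-0.26), STAM had 18.4 ± 2.24 and 31.8 ± 4.23 TPM (-0.76), and GSK3B had 18.9 ± 2.65 and 19.3 ± 1.10 TPM (-0.03, not called). Over 749 RNAs named as antisense or divergent to a tested gene, 560 rose and 9 fell. In those 560 pairs the partner gene rose in 271, fell in 108 and did not pass in 181, some partners standing in more than 1 pair, and the median partner log2 fold change was 0.23, beside 0.22 over all 749 pairs. These partner counts lie near the shares over all tested protein-coding genes, of which 45.65% were called higher and 17.97% lower. AGAP2-AS1 (-1.69) and VPS9D1-AS1 (-1.43) fell while AGAP2 (1.01) and VPS9D1 (0.63) rose. The library kit keeps strand, but the strand setting of the counting is not given in the sources used here. Without it, reads cannot be told apart where a gene and its antisense partner overlap.

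The smaller biotypes differed among themselves and with scaling, beside 47.3% called higher over all genes. After quantile normalization 4238 of all 16494 tested genes were called higher and 4309 lower, and the counts after it are to be read beside these. Sense intronic rows had 68 rises and 5 falls among 130, but 34 and 22 after quantile normalization, and processed transcripts 106 and 12 among 188, but 51 and 27. Transcribed unprocessed pseudogenes had 125 rises and 5 falls among 218, but 50 and 27 after quantile normalization, and TEC rows, which are annotations awaiting experimental support, 65 and 3 among 109, but 31 and 18. The sense intronic falls were 2 without siControl replicate 2 and 3 without siControl replicate 3, and the falls of transcribed unprocessed pseudogenes were 8 without siGCDH replicate 3. Processed pseudogenes were called higher less often, with 113 rises (24.6%) and 47 falls among 460, and 48 and 115 after quantile normalization. Their share of TPM was 1.72% in siGCDH libraries and 2.04% in siControl libraries, and that of processed transcripts 0.364% and 0.491%. Of 120 miRNA rows 12 rose, and a poly(A) library does not measure such short RNAs reliably. CASP16P (2.63), MST1L (2.44), MST1P2 (2.27), TOB1-AS1 (2.22), LAMTOR5-AS1 (2.12) and LEF1-AS1 (1.97) were among the largest rises, and MST1L and MST1P2 are copies of MST1, with which they share sequence.

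Fold changes were then set beside the 7-mers of annotated 3′ UTRs (GENCODE 29, hg38), searched on the transcript strand in 10210 genes averaging 5 TPM or more. The first 7-mer was taken from A375 batch 2, so that these libraries had no part in its choice. There the 7-mer whose holders had the lowest fold changes was ACTGAGA. It stood at rank 9789 of 16099 from the lowest in the SKBR3-labelled cells, where its 1214 holders (11.9% of genes) had a median log2 fold change of 0.17, against 0.18 over all searched genes. Of these holders 20.9% were called lower, beside 20.7% of the genes without it. The next pair was taken from SK-Hep1 once the data had been seen, so what follows on it is a description and not independent of these libraries. The lowest there was TCCTCAA and the next ATCCTCA, which overlap by 6 bases, and in the SKBR3-labelled cells they held ranks 1 and 2. The 1010 holders of TCCTCAA had a median of 0.01 and 33.5% of them were called lower, beside a median of 0.20 and 19.4% among the other genes. The 963 holders of ATCCTCA had a median of 0.01, and 31.9% were called lower.

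The GCDH transcript holds ATCCTCA and ACTGAGA once each, both in the coding sequence, and holds no TCCTCAA. The stretches are printed because they are the places where the silenced transcript carries the 7-mers, which stand in capitals. The first is hg38 chr19:12891885-12891913 and the second chr19:12897356-12897384, both on the plus strand.
GCDH, ATCCTCA: ccacagatgagATCCTCAtcagggacacc
GCDH, ACTGAGA: cagacatgctcACTGAGAttaccctgggc

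The 3′ UTR stretches of 6 of the deepest falls that hold a 7-mer of the overlapping pair are printed to show the shared bases, again in capitals.
SLC25A6, chrX:1386524-1386553, minus strand: aaccacgtagaATCCTCAAccgtgcggacc
RPS14, chr5:150444261-150444289, minus strand: gtgaacaagatTCCTCAAaatattttctg
SLC35F1, chr6:118315943-118315972, plus strand: cattcaaaaagATCCTCAAtggagttacag
GXYLT1, chr12:42086083-42086111, minus strand: atttctaatggTCCTCAAataatgatcat
NOLC1, chr10:102162814-102162842, plus strand: ctatgtatttcATCCTCAtttattgggtc
HMOX1, chr22:35393835-35393863, plus strand: tgcccttcagcATCCTCAgttcctgcagc
These genes fell by 3.24 (SLC25A6), 2.69 (RPS14), 2.51 (SLC35F1), 2.23 (GXYLT1), 2.21 (NOLC1) and 2.17 (HMOX1) on the log2 scale. The isoform used is the one with the longest coding sequence, which need not be the one expressed.

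Median fold changes were lower with longer matches. Falls of at least 1 were more frequent with a 7-mer of the pair than with the shared 6 bases or none. They were not more frequent with both 7-mers as an unbroken run than with either 7-mer without it. The 230 genes whose 3′ UTR held both 7-mers as an unbroken run had a median of -0.07 and 37.8% were called lower. The 733 with ATCCTCA but not the run had a median of 0.02 (30.01% lower), the 639 with TCCTCAA alone 0.05 (32.4% lower), the 2030 with the shared 6 bases alone 0.16 (21.1% lower) and the 6578 with none 0.23 (17.9% lower). Called lower by at least 1 were 5.22% of genes with the run, 5.59% with ATCCTCA, 6.57% with TCCTCAA, 1.92% with the shared bases and 1.16% with none. Of 210 searched genes called lower by at least 1, 95 held a 7-mer of the pair, which is 45.2%, beside 15.7% of all searched genes (1602 of 10210). Holders among the named falls were also SLC1A5, ATF3, HNRNPC, HMGA1, RRM2, ATP5MC3, CASP6, NDRG1, GLUD1, ACO1, MCL1, MRPS2, MRPL10 and PSMD11. The largest falls were not all holders. RPL13A, ANAPC11 and NR2F6 held the shared 6 bases alone, and MYC, SLC7A5 and CCDC167 held none. Named falls that held none also included GCDH, SCD, HMGA2, PSAT1, CHAC1, AKR1B1, HNRNPA1, DUSP1, TKT, PRDX1, LDHA and ENO1, among others. DDT, RPL6 and SNHG29 were not among the searched genes. H2BC21, RNF165, MDM2, CUL3 and IFIT5 held a 7-mer of the pair and were called higher, although the calls of CUL3 (0.0795, adjusted p = 0.147 by limma) and MDM2 were lost after median scaling. The part that pairing with an siRNA plays in these falls was not tested, since the siRNA sequences were not used here.

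**Figure D4:**
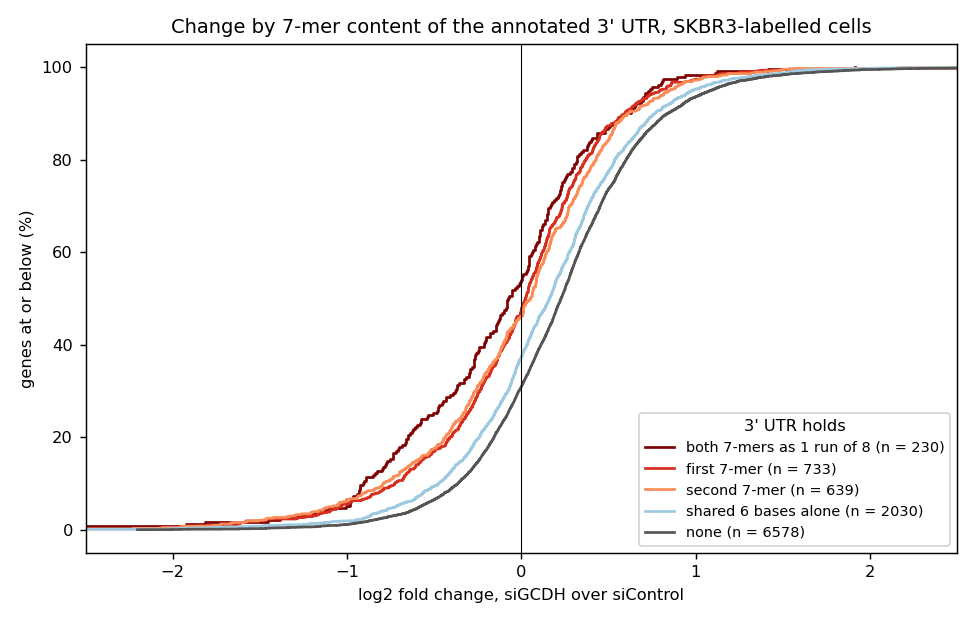
Cumulative share of genes (%) at or below each log2 fold change (siGCDH over siControl, SKBR3-labelled cells) by whether the annotated 3′ UTR holds the overlapping 7-mers ATCCTCA (first) and TCCTCAA (second), their shared 6 bases, or none. The curves shift leftward in order of match, with medians of -0.07 for the unbroken run and 0.23 for none, and they converge at the upper end.

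At the other end of the ranking, GCACTTT and TTTGCAC had the highest fold changes of 16099 7-mers, and since these values chose them they are given as a description. The 2274 holders of GCACTTT (22.3% of genes) had a median of 0.25, against 0.16 without it, and the 1380 holders of TTTGCAC (13.5%) a median of 0.26, against 0.17. Of holders, 50.4% and 51.5% were called higher, beside 44.3% and 44.7% of the other genes. Unlike the ranks, these medians and shares were not adjusted for 3′ UTR length. Among protein-coding genes of at least 5 TPM, the median log2 fold change rose with transcript length. It was 0.09 in the shortest of 5 bins and 0.24 in the longest, and the part of length was not tested. These 7-mers are the complements of the seeds of the miR-17 and miR-19 families, whose mature sequences (RefSeq, GRCh38.p14) are printed with the seed in capitals to show the match. The miRNAs themselves were not measured here.
hsa-miR-17-5p: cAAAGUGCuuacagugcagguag
hsa-miR-20a-5p: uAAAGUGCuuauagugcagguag
hsa-miR-19a-3p: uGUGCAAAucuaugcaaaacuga
hsa-miR-19b-3p: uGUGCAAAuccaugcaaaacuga

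The knockdown effect was set against that of the other lines with the same library kit, as a difference of log2 fold changes (SKBR3-labelled minus the mean of A375 batch 2 and SK-Hep1) over 18 libraries. Of 16706 genes limma called 7577 (45.4%), with 5341 higher (32.0%) and 2236 lower (13.4%) in the SKBR3-labelled cells. After median scaling the counts were 3591 higher and 3617 lower. For reference, 17.9% of genes were called higher and 15.7% lower within A375 batch 2, and 37.3% and 18.2% within SK-Hep1. All 13 mitochondrially encoded genes had a higher effect here, with list medians of 1.28 in the SKBR3-labelled cells, -0.11 in A375 batch 2 and 0.00 in SK-Hep1. Of 28 histone genes tested for the difference 24 were higher and 4 did not pass, and of 21 interferon genes 16 were higher and 5 did not pass, with medians for interferon genes of 0.57, -0.32 and -0.27 in the same order. The ATF4 list had 23 lower and 4 higher of 41 (medians -0.16, 0.31 and -0.02), the p53 list 18 lower and 5 higher of 31 (0.46, 0.61 and 1.05), and ribosomal protein genes 47 lower and 7 higher of 86 (-0.22, 0.02 and -0.19). Medians over all tested genes were 0.29, 0.02 and 0.18 in the same order, and these list counts are given without rescaling. Several falls were deep in SK-Hep1 too. The log2 fold changes of RPL13A were -2.84 in the SKBR3-labelled cells, 0.04 in A375 batch 2 and -2.73 in SK-Hep1, those of RPL6 -2.24, 0.02 and -2.16, those of NOLC1 -2.21, -1.505 and -2.405, and those of SLC1A5 -1.96, 0.39 and -2.02.

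**Figure D5:**
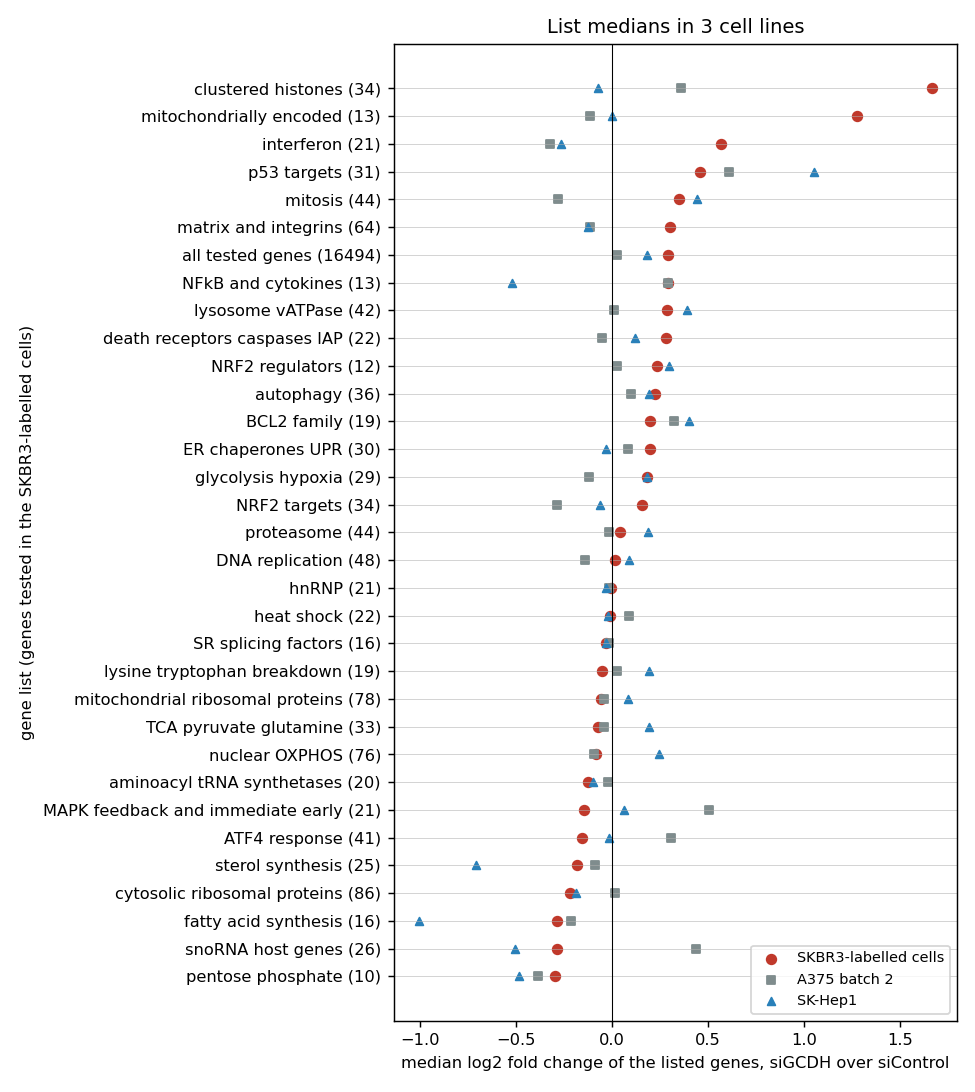
Median log2 fold change (siGCDH over siControl) of each gene list with at least 10 tested genes, and of all tested genes, in the SKBR3-labelled cells (circles), A375 batch 2 (squares) and SK-Hep1 (triangles). Histone, mitochondrially encoded and interferon genes stand higher in the SKBR3-labelled cells than in the other lines, at 1.66, 1.28 and 0.57.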

How the data were processed

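The authors deposited a table of TPM values with a column for each library. Tools named in the submitters' processing notes, with no order given, are cutadapt 2.3, STAR 2.7.0d and RSEM 1.3.1, beside the build hg38. As background, RSEM shares ambiguous reads among similar transcripts. No annotation release and no strand option is named in the sources used here.

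Symbols were matched by identifier (41209 of 60504 rows), and GENCODE 29 placed 56996. Log2(TPM + 1) values of rows averaging 1 TPM or more were fitted with limma 3.58.1 (eBayes with trend, R 4.3.3), two-sided, with Benjamini-Hochberg adjustment and calls at an adjusted p under 0.05. The difference between lines was a contrast over 18 libraries. The fits were run on simulated data with few changed genes and no overall shift. That run does not cover data in which a large share of genes is called, as here.

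The members, the 34 gene lists (protein-coding rows, except small nucleolar RNA hosts) and the 7 marker lists were chosen with earlier results of these data known. Named genes were GCDH, a panel of 19, the 12 largest protein-coding rises and falls (called, at least 5 TPM in the higher group, groups not overlapping), the 3 most significant called members of each list, the 3 largest rises and falls of each other biotype with at least 100 tested genes, and 6 per direction for the difference, only with an approved symbol. A few further genes (such as PHLDA3, STAT2 and those near a list's ends) were named after their values were seen. Some genes that the rule names are not reported here.

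The 7-mers were ranked after regression of fold changes on 3′ UTR length and GC share, over 3′ UTRs of at least 50 nt and 7-mers with at least 50 holders. Medians and shares of holders were not adjusted.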

Additional observations from a re-analysis of the deposited data

Results flagged for a closer look

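The knockdown effect differed between the SKBR3-labelled cells and the mean of A375 batch 2 and SK-Hep1 for 7577 genes (limma interaction, adjusted p under 0.05). Among called protein-coding genes with at least 5 TPM in some group, the largest positive differences on the log2 scale were H3C10 (3.55), ITGB4 (3.50), H2BC21 (3.37), DYNLT2 (3.33), CBY3 (3.27) and H2AC13 (2.93). For several of these the other lines lie near 0, so that the difference is mostly the change in the SKBR3-labelled cells against a floor. The siControl means in A375 batch 2 and SK-Hep1 were 1.22 and 0 TPM for H3C10, 0.0567 and 0.117 TPM for CBY3, 0.687 and 0 TPM for H2AC13, and 0.85 and 1.10 TPM for DYNLT2. ITGB4, an integrin of hemidesmosomes, had 7.78 ± 1.45 TPM in siGCDH libraries and 1.25 ± 1.10 TPM in siControl libraries of the SKBR3-labelled cells, 3.42 ± 1.45 and 8.16 ± 1.40 TPM in A375 batch 2, and 65.1 ± 4.75 and 227.0 ± 1.85 TPM in SK-Hep1, in the same order (SD, n = 3 each).

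The largest negative differences were KRTAP2-3 (-2.96), CHAC1 (-2.42), SLC35F1 (-2.42), RGS16 (-2.09), HMGA2 (-2.05) and ARID3B (-2.02). KRTAP2-3 was listed at 0 in all 6 SKBR3-labelled libraries, so its difference is that of the other lines alone. SLC35F1 and RGS16 were at or near 0 in SK-Hep1. HMGA2 had 9.52 ± 0.57 TPM in siGCDH libraries and 40.3 ± 1.99 TPM in siControl libraries of the SKBR3-labelled cells, 381.5 ± 26.8 and 122.7 ± 3.94 TPM in A375 batch 2, and 46.9 ± 4.70 and 130.7 ± 9.57 TPM in SK-Hep1, in the same order. ARID3B, a DNA-binding protein gene, had 6.01 ± 1.58 TPM in siGCDH libraries and 18.2 ± 0.64 TPM in siControl libraries of the SKBR3-labelled cells, and 8.08 ± 1.49 and 2.92 ± 1.40 TPM in A375 batch 2.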

How the results depend on the processing

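In the SKBR3-labelled cells 10236 genes were called, against 7758 in a joint fit of 24 libraries. With median scaling 5043 genes were higher and 4171 lower, and 552 fell by at least 1 on the log2 scale. With quantile normalization the counts were 4238 and 4309, with 932 higher and 809 lower by at least 1. Rises of at least 1 numbered 1121 with a filter at 5 TPM, 1082 over protein-coding rows alone and 676 with a pseudocount of 5, which gave 165 falls of that size. For the difference between lines, median scaling gave 3617 lower, and quantile normalization 3396 higher and 3654 lower, with 809 and 605 of at least 1. Higher by at least 1 were 2377 genes against A375 batch 2 alone (521 lower), 618 with a filter at 5 TPM, 835 over protein-coding rows and 543 with a pseudocount of 5 (104 lower). CALR was at 0.0163 after quantile normalization, ALDH7A1 at -0.21 after median scaling and -0.0141 after quantile normalization, and FTH1 at -0.107 after median scaling. Holders of the A375 batch 2 7-mer had a median of 0.202 over genes of at least 1 TPM and -0.0661 after median scaling, and those of the SK-Hep1 7-mer 0.0434 and -0.219. The cause of these changes was not tested.

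Leaving out each library in turn gave 9148 to 9399 calls, 6938 to 7239 higher and 2160 to 2253 lower, with 2171 to 2344 and 292 to 323 of at least 1. GCDH lay between -1.95 and -1.64. The difference gave 6725 to 6919 calls (4667 to 4920 higher, 1999 to 2058 lower, 1390 to 1525 and 225 to 246 of at least 1). The rise in the mitochondrial share was 2.76 to 2.87 points, in antisense 0.513 to 0.523 and in lincRNA 0.525 to 0.531, and protein-coding rows changed by -1.27 to -1.23. The 7-mer medians were 0.146 to 0.18 (A375 batch 2) and -0.00271 to 0.0186 (SK-Hep1), the last below 0 without siControl replicate 1.

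Same-numbered wells showed no visible shared deviation (correlations of deviations -0.0041, -0.02 and 0.00504). Whether they were handled together cannot be told from these values. With the replicate number as a block 9878 genes were called, 7529 higher and 2349 lower, and 1 of 175 named results changed its call. Depth is unknown, so no detection limit can be given for genes listed at 0.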
